A study of Mus musculus with 40 samples.

Results

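Aortic RNA from mice given the calcineurin inhibitor cyclosporin A (CsA) and then angiotensin II (Ang-II) for 2 h was compared with RNA from wild-type (WT) mice given Ang-II for 2 h alone. The comparison rests on 6 of the 40 libraries of the series, 3 per group, each made from 3 pooled aortas. All mice of both groups were C57BL/6J males of 10 to 12 weeks, and in both groups Ang-II was delivered by a subcutaneous minipump at 1 µg/kg/min. In the CsA group a first minipump had delivered CsA at 5 mg/kg/day for 5 days. WT mice were operated without a pump at that stage, so that CsA and an implanted pump cannot be told apart. Per the study's methods, Ang-II-treated mice were kept only if their systolic pressure exceeded 130 mmHg, CsA-treated mice were dropped if NFAT dephosphorylation in the thymus was not inhibited, and adventitia and perivascular tissue were stripped from the aortas. Untreated WT and CsA aortas and aortas after 24 h of Ang-II, with 3 libraries per group, come from the same experiment and served for reference. A further reference came from male mice that had all received tamoxifen at 1 mg/day for 5 days from an age of 10 to 12 weeks and, 6 weeks later, 2 h of Ang-II. The labels of these libraries give floxed CnB1 (Ppp3r1) without the Myh11-CreERT2 transgene (Cn-Ctl) or with it (SM-Cn-/-), while the study's methods also count mice with Cre and unfloxed Ppp3r1 as Cn-Ctl. Cn-Ctl mice were selected at the same pressure, whereas SM-Cn-/- mice were kept whatever theirs was. Myh11-CreERT2 deletes in smooth muscle cells, so other cells of those aortas keep the gene.

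Calcineurin is a calcium-dependent protein phosphatase with a catalytic A subunit and a regulatory B subunit. Cyclosporin binds cyclophilin, and the complex covers the site through which calcineurin engages its substrates, among them the NFAT transcription factors, which enter the nucleus once dephosphorylated. In the vessel wall Ang-II acts mainly on the type 1 receptor of smooth muscle cells and mobilises calcium. Within minutes this switches on immediate early genes, which need no new protein for their transcription. Rcan1, itself an inhibitor of calcineurin, carries NFAT sites at its downstream promoter, which makes the short transcript a common readout of calcineurin activity.

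Values are the signal deposited by the authors, which is the reads assigned to a gene plus 0.5 over a scaled library size, close to a CPM scale, and is not corrected for gene length, so that levels are compared between groups and not between genes. Differences are log2 differences of signal plus 0.5, CsA minus WT, with their standard error (SE), and p-values are from limma with Benjamini-Hochberg adjustment over the 13741 protein-coding genes tested. A gene was past the threshold at an adjusted p under 0.05. The fit took in all 18 libraries of the CsA experiment, whose 6 groups share the estimate of spread behind these p-values. The 6 libraries of the comparison held 18.98 M to 25.89 M assigned reads. The 10 most abundant genes took 13.4% to 13.7% of the signal in the WT libraries and 20.2%, 18.7%, and 14.1% in CsA replicates 1, 2, and 3. In limma's estimate of library quality, WT replicate 2 and CsA replicate 3 had the lowest weights of their groups (0.434 and 0.448). By median absolute log2 distance from the rest of its group, WT replicate 2 was furthest among WT (0.207). Among CsA libraries replicate 1 was furthest (0.198), ahead of replicate 3 (0.183). Summed genes of nerve and blood were far above the rest in CsA replicate 3, and summed genes of striated muscle and macrophages in WT replicate 2, so that counts are also given without both libraries.

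In all, 183 genes were past the threshold, 1.33% of those tested. CsA aortas had lower signal than WT aortas for 129 of them (0.939%) and higher signal for 54 (0.393%). The median log2 difference was -0.67 among the lower genes and 0.84 among the higher genes, against 0.005 over all genes, and 23 lower and 15 higher genes differed by more than 2-fold. For 182 of the 183 the libraries of one group did not overlap those of the other. Of all genes tested, 10.4% had the 3 CsA libraries below the 3 WT libraries and 9.83% had them above. An unadjusted limma p under 0.05 was found for 2546 of the 13741 genes tested. By edgeR 162 genes were called (55 higher, 107 lower) and by DESeq2 802 (299 higher, 503 lower). The count of 183 by limma fell to 2, for untested reasons, when only the 6 libraries of the comparison were fitted. It was also sensitive to single libraries, as it was 15, 404, or 21 without WT replicate 1, 2, or 3 and 13, 140, or 214 without CsA replicate 1, 2, or 3. Without both WT replicate 2 and CsA replicate 3 it was 319, with 154 higher and 165 lower. All 183 kept their sign in each of these fits. For the 182 without overlap, leaving out libraries could not have changed the sign. Whichever single library was left out, 11 genes, all lower with CsA, stayed past the threshold. These were Egr1, Scx, Nr4a2, Zfp36, P3h2, Emd, Sod3, Rhbdd2, Ppp1r10, Tmem45a, and Meis2, of which Sod3, Ppp1r10, Tmem45a, and Meis2 were named after their values were seen.

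**Figure D1:**
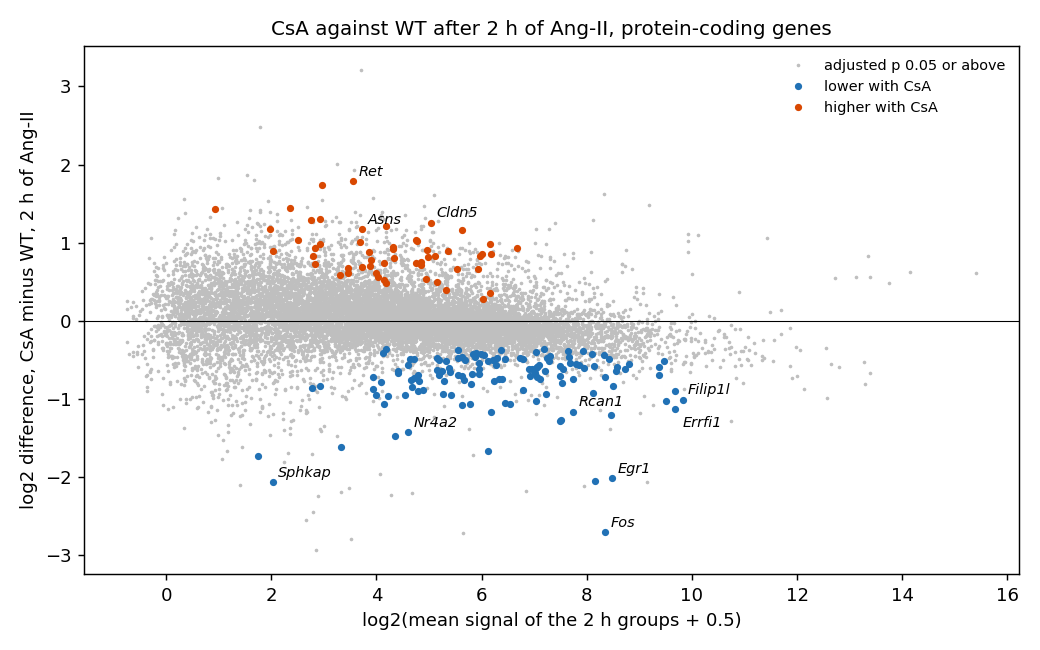
Log2 difference between the CsA and WT groups after 2 h of Ang-II (vertical axis) against log2 of the mean signal of both groups plus 0.5 (horizontal axis), one point per protein-coding gene. The 129 genes lower with CsA and the 54 higher are coloured, and Fos and Egr1 are among the lowest of the coloured points.

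Among the genes most reduced in CsA aortas were immediate early transcription factors. Fos, a subunit of the AP-1 dimer, had a signal of 426, 675, and 567 in the 3 WT libraries and 54.02, 66.6, and 160.1 in the 3 CsA libraries. The groups did not overlap, and CsA replicate 3 was well above the other CsA libraries. Fos was 6.53-fold lower with CsA (log2 difference -2.71, SE 0.53, limma adjusted p = 0.026). Fosb, a paralogue of Fos, gave 429, 386, and 526 in WT and 53.9, 116, and 196 in CsA aortas, again with CsA replicate 3 the highest of its group (log2 difference -2.05, SE 0.47, limma adjusted p = 0.045). Junb, which dimerises with Fos proteins, was at 84.8, 110, and 100 in WT and at 30.1, 46.1, and 58.1 in CsA aortas (log2 difference -1.17, limma adjusted p = 0.038). All CsA libraries therefore lay below the lowest WT library for these AP-1 genes. For Fos, Fosb, and Junb the call was kept in only 2, 2, and 1 of the 6 fits that left out a library.

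Egr1, a zinc-finger factor induced by serum, stretch, and Ang-II, was measured at 489, 606, and 609.7 in WT and 92.7, 134, and 219.9 in CsA aortas. This 4.03-fold difference (log2 -2.01, SE 0.29, limma adjusted p = 0.0044) stayed past the threshold without any single library. Nr4a2, an orphan nuclear receptor of the Nur77 family (ENSMUSG00000026826, chr2:57106830-57124003, minus strand, GRCm38), was nearly constant within each group, at 36.1, 32.98, and 34.9 in WT and 11.1, 13.6, and 13.3 in CsA aortas. Its log2 difference was -1.42 (SE 0.15, limma adjusted p = 0.00057). Nr4a3, of the same family, had 293, 212, and 245 in WT and 74.2, 164, and 86.9 in CsA aortas (log2 -1.28, SE 0.25, limma adjusted p = 0.029). CsA replicate 2 came closest to the WT range for this gene. The third member, Nr4a1, gave 416, 443, and 399 and 149.6, 205, and 221 and missed the threshold (log2 -1.14, limma adjusted p = 0.11), although its groups did not overlap either.

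Further called members of the immediate early list had other roles. Zfp36 encodes tristetraprolin, which binds AU-rich elements and speeds the decay of cytokine transcripts. Its signal was 253, 250.3, and 270.5 in WT and 94.5, 105, and 121 in CsA aortas (log2 -1.27, SE 0.18, limma adjusted p = 0.0043). With Nr4a2 it was 1 of the 2 genes still past the threshold when only these 6 libraries were fitted. Btg2, an antiproliferative gene, was at 496, 494, and 468 and 161, 205, and 287 (log2 -1.20, SE 0.28, limma adjusted p = 0.045), and the call was kept in only 1 of the 6 fits without a library. Ier2, an early gene of less known function, was at 61.3, 80.6, and 68.6 and 33.6, 41.1, and 44.97 (log2 -0.81, SE 0.15, limma adjusted p = 0.024). Srf, the factor that drives many early and contractile genes from CArG boxes, differed least among the called immediate early genes, at 131, 116, and 135 in WT and 82.02, 107, and 84.2 in CsA aortas (log2 -0.49, SE 0.11, limma adjusted p = 0.04).

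Over the whole list of 30 immediate early genes, 10 were lower with CsA and 0 were higher past the threshold, where 0.939% of all genes were lower. By edgeR 8 and by DESeq2 17 of the list were called, where these tools called 162 and 802 of all genes. The list had a median log2 difference of -0.94, against 0.005 over all genes, and 29 of the 30 differences were below 0. For 23 genes the 3 CsA libraries lay below the 3 WT libraries, as they did for 10.4% of all genes, and for 1, Klf10, they lay above. Among those that missed the threshold, Jun gave 661, 791, and 682 in WT and 239, 357, and 362 in CsA aortas (log2 -1.18, adjusted p = 0.1, limma). Atf3 gave 786, 786, and 903 and 279.5, 425, and 504 (log2 -1.07, adjusted p = 0.21, limma). At the other end were Myc (log2 -0.38), Klf4 (-0.29), and Klf10 (0.46), none of them past the threshold.

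**Figure D2:**
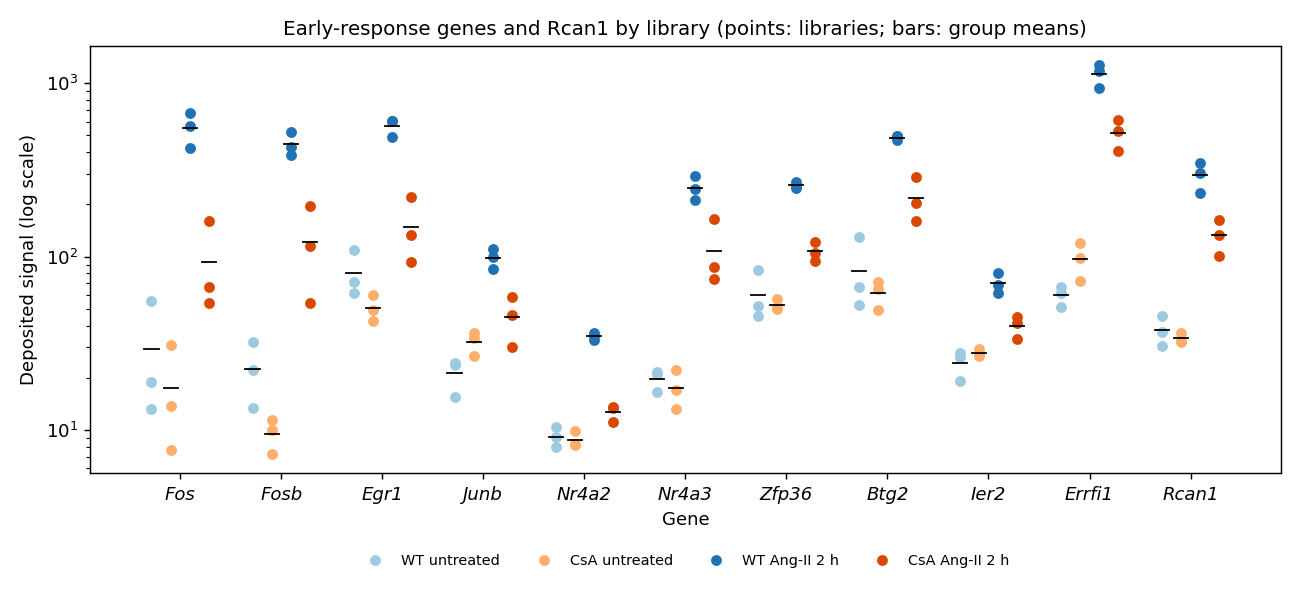
Deposited signal on a log scale (vertical axis) of early-response genes and Rcan1 (horizontal axis) in WT and CsA aortas, untreated and after 2 h of Ang-II. Points are the 3 libraries of a group and bars their mean. For each gene shown the 3 CsA libraries at 2 h lie below the 3 WT libraries at 2 h.

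In untreated aortas, from other mice, 4 members were higher and 6 lower with CsA, where 13.9% of all genes were higher and 11.4% lower, and the median was -0.37. Fos gave 13.3, 18.8, and 55.5 in untreated WT and 30.8, 13.7, and 7.64 in untreated CsA aortas, with overlapping groups (log2 -0.68, limma adjusted p = 0.36). The untreated difference was -0.05 for Nr4a2, -0.14 for Zfp36, 0.61 for Junb, and -0.64 for Egr1, none past the threshold. Ang-II raised Fos, Egr1, Zfp36, and Nr4a2 in both groups. On the log2 scale Fos rose by 4.47 in WT and 2.45 in CsA aortas, Egr1 by 2.84 and 1.47, and Zfp36 by 2.14 and 1.01. Nr4a2 rose by 1.87 in WT (adjusted p = 7.5e-07, limma) and 0.50 in CsA aortas (adjusted p = 0.03), while Junb rose by 2.21 in WT and differed by 0.42 in CsA aortas (adjusted p = 0.24). These responses share their libraries with the comparison at 2 h and are given side by side only. At 24 h 6 members were lower and 0 higher, with a median of -0.48, where 3.54% of all genes were lower and 2.02% higher. The 24 h calls included Fosl1 (-2.58), Srf (-0.40), and Nr4a2 (-0.63).

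Rcan1 (regulator of calcineurin 1, ENSMUSG00000022951, chr16:92391953-92470867, minus strand, GRCm38) was the only member of the calcineurin and NFAT list past the threshold. After 2 h of Ang-II its signal was 304, 234, and 349 in WT aortas and 101, 163, and 134 in CsA aortas. All CsA libraries were below all WT libraries, and the lowest CsA library was above every untreated library. In untreated aortas Rcan1 stood at 36.9, 30.7, and 45.2 in WT and 32.3, 36.5, and 32.4 in CsA, groups that overlapped. At 2 h the difference was 2.24-fold (log2 -1.16, SE 0.21, limma adjusted p = 0.018), and the call was kept in 3 of the 6 fits without a library. At 24 h the log2 difference was -1.41 (limma adjusted p = 0.0033).

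The other 11 members of that list missed the threshold, and the list's median was 0.01. This held for the transcripts of calcineurin itself. Ppp3r1, the regulatory subunit, gave 99.7, 82.6, and 94.8 in WT and 83.3, 85.3, and 112 in CsA aortas (log2 0.01, limma adjusted p = 0.97). For the catalytic subunits the log2 differences were 0.30 for Ppp3ca, 0.02 for Ppp3cb, and -0.13 for Ppp3cc. The NFAT genes lay between -0.25 for Nfatc3 and 0.44 for Nfatc2, with Nfatc1 at 0.04 and Nfatc4 at -0.11. Rcan2 (-0.15), Rcan3 (0.25), and the calcineurin inhibitor Cabin1 (0.00) also missed the threshold. Of the 12 cyclophilin genes, the protein family to which CsA binds, 0 passed in limma, edgeR, or DESeq2 and 0 had an unadjusted p under 0.05, with differences from -0.17 to 0.30 and a median of 0.04. Ppia, the main cytosolic cyclophilin, gave 585, 576, and 672 in WT and 596, 662, and 648 in CsA aortas.

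The Rcan1 gene has a pair of promoters in the RefSeq set used here (GRCm38.p6, 250 bases before to 50 after each start). They are printed because only the downstream promoter, which makes the short transcript, holds the core letters of an NFAT site. Reads were counted per gene, so the transcripts are not told apart. Capitals mark GGAAA on either strand. The upstream promoter (chr16:92466120-92466419, minus strand) held 0 matches and the downstream promoter (chr16:92400029-92400328, minus strand) 3, whose first bases lie 227, 193, and 163 bases before the start.
Rcan1 upstream promoter: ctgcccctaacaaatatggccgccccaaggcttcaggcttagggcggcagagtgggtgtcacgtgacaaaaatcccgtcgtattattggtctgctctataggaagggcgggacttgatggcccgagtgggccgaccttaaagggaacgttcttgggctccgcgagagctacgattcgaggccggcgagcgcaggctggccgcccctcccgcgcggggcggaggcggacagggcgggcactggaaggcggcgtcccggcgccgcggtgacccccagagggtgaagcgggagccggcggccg
Rcan1 downstream promoter: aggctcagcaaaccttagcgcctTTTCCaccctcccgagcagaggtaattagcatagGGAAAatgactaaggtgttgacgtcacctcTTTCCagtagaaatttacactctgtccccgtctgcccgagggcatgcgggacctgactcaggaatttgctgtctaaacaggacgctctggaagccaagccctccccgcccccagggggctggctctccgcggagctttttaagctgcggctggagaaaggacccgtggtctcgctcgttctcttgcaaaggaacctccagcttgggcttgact
The letters GGAAA are common, as they occurred in 58.7% of the 13616 promoters of the genes tested, in 57.5% of the 113 promoters of genes lower with CsA, and in 61.8% of the 55 promoters of genes higher with CsA.

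A cAMP response element (TGACGTCA, which reads alike on both strands) was found in 2.9% of all promoters, in 8 of the 113 promoters of lower genes (7.1%), and in 0 of the 55 of higher genes. Besides Rcan1, where it starts 175 bases before the downstream start, it was present, with others, at Btg2 (chr1:134079106-134079405, minus strand, 166 bases before the start) and at the second promoter of Errfi1 (chr4:150854820-150855119, plus strand, 51 bases before the start). Both are shown with the element in capitals because they belong to called early-response genes.
Btg2 promoter: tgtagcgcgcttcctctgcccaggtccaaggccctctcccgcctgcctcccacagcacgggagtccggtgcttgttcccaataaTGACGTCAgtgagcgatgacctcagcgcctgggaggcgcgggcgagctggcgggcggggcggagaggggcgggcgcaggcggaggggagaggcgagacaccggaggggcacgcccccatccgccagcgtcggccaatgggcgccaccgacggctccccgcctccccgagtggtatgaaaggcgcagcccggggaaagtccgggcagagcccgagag
Errfi1 second promoter: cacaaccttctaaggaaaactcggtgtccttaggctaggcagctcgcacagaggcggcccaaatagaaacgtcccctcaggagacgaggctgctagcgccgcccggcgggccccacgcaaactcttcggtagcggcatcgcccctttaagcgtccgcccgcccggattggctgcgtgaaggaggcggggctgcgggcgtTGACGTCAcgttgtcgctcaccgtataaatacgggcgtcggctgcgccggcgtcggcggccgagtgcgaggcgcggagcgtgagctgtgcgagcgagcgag
A CArG box, the Srf-binding motif, was found in 1.4% of all promoters, 5.3% of those of lower genes, 3.6% of those of higher genes, and 6 of the 30 promoters of the immediate early list. Each start of a gene counts as a promoter. Those 6 belong only to Srf, Zfp36, and several starts of Egr2, which was not called. The matches of higher genes all belong to Ptprr. Among called genes a CArG box was present, with others, at Zfp36 (chr7:28379179-28379478, minus strand, 58 bases before the start), at Filip1l, and at Srf itself (chr17:46556113-46556412, minus strand, 82 and 62 bases before the start). The Zfp36 and Srf promoters follow with the boxes in capitals.
Zfp36 promoter: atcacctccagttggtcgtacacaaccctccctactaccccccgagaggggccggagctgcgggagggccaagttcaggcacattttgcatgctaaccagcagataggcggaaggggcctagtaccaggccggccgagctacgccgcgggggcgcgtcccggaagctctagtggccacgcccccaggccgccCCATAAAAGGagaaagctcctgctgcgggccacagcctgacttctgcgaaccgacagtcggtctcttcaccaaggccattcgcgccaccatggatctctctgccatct
Srf promoter: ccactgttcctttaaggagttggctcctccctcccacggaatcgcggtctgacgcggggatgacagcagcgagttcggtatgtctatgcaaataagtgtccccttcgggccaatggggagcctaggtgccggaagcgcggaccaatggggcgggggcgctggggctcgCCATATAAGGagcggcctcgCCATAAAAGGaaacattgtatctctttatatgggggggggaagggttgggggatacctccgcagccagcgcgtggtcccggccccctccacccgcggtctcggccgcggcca
Promoters were found for 91 of the 129 lower genes, 46 of the 54 higher genes, and 21 of the 30 immediate early genes, and a match describes letters in the window only.

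Errfi1, a feedback inhibitor of the EGF receptor, rose by 4.23 with Ang-II in WT and by 2.43 in CsA aortas on the log2 scale. Its signal at 2 h was 1171, 943, and 1270 in WT and 409, 617, and 532 in CsA aortas (log2 -1.13, SE 0.19, limma adjusted p = 0.015). In untreated aortas the order was the opposite, with 51.2, 61.3, and 66.6 in WT and 119, 97.7, and 71.98 in CsA (log2 0.66, limma adjusted p = 0.021). It was the only one of the 14 MAP kinase feedback genes past the threshold, and the list's median was -0.11. None of the 6 EGF receptor ligand genes passed in limma, edgeR, or DESeq2 (median 0.11), and 1 had an unadjusted limma p under 0.05. Hbegf, for example, gave 164, 114, and 189 in WT and 69.7, 161, and 113 in CsA aortas, with CsA replicate 2 inside the WT range.

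Has3, a hyaluronan synthase of the cell surface, gave 33.3, 26.4, and 28.6 in WT and 10.2, 8.31, and 12.5 in CsA aortas (log2 -1.48, SE 0.29, limma adjusted p = 0.026). It was the only one of 9 genes of the hyaluronan matrix that passed (median -0.40). Among 18 inflammatory genes only Nfkbiz, a nuclear cofactor of NF-kB, passed, at 110, 79.96, and 109.7 and 48.4, 64.5, and 65.8 (log2 -0.74, limma adjusted p = 0.045), and the list's median was -0.08. In untreated aortas 8 inflammatory genes were higher with CsA, where 13.9% of all genes were, and 0 lower (median 0.61). Pde4b, a cAMP phosphodiesterase, gave 135, 103, and 133 in WT and 39.8, 65.2, and 76.5 in CsA aortas (log2 -1.06, SE 0.21, limma adjusted p = 0.026). Emd, the gene for the inner nuclear membrane protein emerin (ENSMUSG00000001964, chrX:74254687-74261548, plus strand, GRCm38), had the smallest p of all genes. Its signal was 125, 115, and 112 in WT and 55.9, 62.9, and 50.7 in CsA aortas (log2 -1.05, SE 0.09, limma adjusted p = 3.4e-05).

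Other genes that the study measured singly missed the threshold. Ier3, an early stress gene, gave 158, 122, and 137 in WT and 57.9, 74.6, and 92.7 in CsA aortas without overlap (log2 -0.90, limma adjusted p = 0.08). Gja1, the gap junction gene connexin 43, gave 321, 259.8, and 342 and 175, 257, and 230.2, and the groups stayed apart by a narrow margin (log2 -0.49, limma adjusted p = 0.27).

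A second group of lower genes was lower in untreated aortas too. Of the 129 genes lower at 2 h, 61 (47.3%, and 3.91% of the 1560 lower untreated) were also lower in untreated CsA aortas, where 11.4% of all genes were lower, and 4 were higher there. Those 61 had a median log2 difference of -0.62 at 2 h and -0.62 untreated, and their median response to Ang-II was 0.17 in both WT and CsA aortas. For the other 68 the medians were -0.74 at 2 h and -0.21 untreated, and the median response to Ang-II was 0.96 in WT and 0.46 in CsA aortas. The responses share libraries with the differences they are set beside. At 24 h 28 of the 129 (21.7%, and 5.75% of the 487 lower there) were lower, where 3.54% of all genes were, and 0 higher.

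Scx, a transcription factor of tendon and other tensile tissues, had the largest log2 difference among those of the 61 genes that never lost their call. It gave 16.96, 12.2, and 14.8 in WT and 3.24, 5.14, and 5.12 in CsA aortas at 2 h (log2 -1.61, SE 0.20, limma adjusted p = 0.0023) and 11.1, 9.57, and 13.6 and 4.06, 4.87, and 4.02 in untreated aortas. The libraries of WT and CsA were apart at both times. P3h2, a prolyl hydroxylase of collagen, gave 74.4, 52.7, and 73.1 and 33.3, 29.5, and 30.4 at 2 h (log2 -1.08, limma adjusted p = 0.0038) and differed by -1.06 untreated. Slc22a2, an organic cation transporter, gave 3.62, 4.25, and 6.19 and 1.15, 1.31, and 0.702 (log2 -1.73, limma adjusted p = 0.018), a low signal in every library. Sphkap, an anchoring protein of protein kinase A outside that subset, also had a low signal, at 4.7, 6.83, and 6.45 and 0.383, 1.4, and 1.67 (log2 -2.06, limma adjusted p = 0.038). Sod3, the extracellular superoxide dismutase of the vessel wall, chosen after its values were seen, gave 1218, 928, and 1065 and 528, 655, and 537 (log2 -0.90, limma adjusted p = 0.0044).

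Few genes of actin, smooth muscle, matrix, and vessel tone passed the test. Counts by other tools stand beside 162 of all genes called by edgeR and 802 by DESeq2. Of 21 genes of actin and focal adhesions, 21 had a difference below 0 (median -0.47), all CsA libraries lay below all WT libraries for 10, where this held for 10.4% of all genes, and only Filip1l was called, against 1 gene by edgeR and 9 by DESeq2. Filip1l, a filamin-interacting protein, gave 1266, 1009, and 1342 in WT and 527, 771, and 519.9 in CsA aortas (log2 -1.01, SE 0.19, limma adjusted p = 0.021). Of the same 21 genes, 13 were lower in untreated aortas (median -0.63), where 11.4% of all genes were. In the list of 14 smooth muscle markers Actg2, an actin of visceral and vascular smooth muscle, was the 1 gene called by limma (log2 -0.72, limma adjusted p = 0.04), against 1 by edgeR and 8 by DESeq2, and all CsA libraries lay below all WT libraries for 10 (median -0.55). Among 23 genes of matrix and proteases Col5a1, a fibrillar collagen chain (587, 469.5, and 527 in WT, 339, 377, and 361 in CsA), and Loxl2, a collagen crosslinker (76.1, 63.6, and 67.7 and 45.1, 43.05, and 40.4), were lower. By edgeR 2 and by DESeq2 4 of these genes were called, 18 of the 23 differences were below 0 and 5 above, the CsA libraries lay below the WT libraries for 5, and the median was -0.21. Among 22 genes of vessel tone only Kcnmb1, the beta subunit of the calcium-activated potassium channel of smooth muscle, was called by limma, at 243, 198, and 234 in WT and 129, 166, and 144 in CsA aortas (log2 -0.62, limma adjusted p = 0.044), and edgeR called 0 and DESeq2 4 of the list. The groups stayed apart for Filip1l, Col5a1, Loxl2, and Kcnmb1.

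Other genes of ion channels and transporters were among the lower ones and were named after their values were seen. Kcnj8 and Abcc9 encode the pore and the sulfonylurea-receptor subunit of the vascular KATP channel. Kcnj8 gave 40.2, 42.1, and 31.4 in WT and 21.1, 17.1, and 22.8 in CsA aortas (log2 -0.88, limma adjusted p = 0.038), and Abcc9 gave 356, 273, and 310.4 and 235, 240.1, and 222 (log2 -0.42, limma adjusted p = 0.044). Slc8a1, the sodium-calcium exchanger, gave 20.3, 19.6, and 17.8 and 7.84, 12.5, and 10.9 (log2 -0.87, limma adjusted p = 0.04). Each of these gene calls was lost without 3 or more of the single libraries.

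The 54 higher genes included genes of endothelium and of fat tissue. Cldn5, the claudin of endothelial tight junctions, gave 17.2, 20.5, and 18.6 in WT and 53.4, 47.1, and 37.2 in CsA aortas (log2 1.26, SE 0.24, limma adjusted p = 0.023). Sema3g, a semaphorin of arterial endothelium, gave 29.7, 33.6, and 26.4 and 72.4, 78.8, and 54.01 (log2 1.17, limma adjusted p = 0.037). Podxl, a sialomucin of the endothelial surface, gave 74.3, 74.97, and 59.3 and 148, 154, and 102 (log2 0.93, limma adjusted p = 0.044). Every CsA library exceeded every WT library for these genes, and CsA replicate 3 was the lowest of its group. Notch4, an endothelial Notch receptor named after its values were seen, gave 21.3, 21.5, and 19.97 and 47.9, 42.4, and 30.5 (log2 0.91, limma adjusted p = 0.04), and Nrarp, a target and feedback inhibitor of Notch signalling, gave 8.03, 8.91, and 7.27 and 16.2, 19.4, and 14.9 (log2 1.01, limma adjusted p = 0.029). Slc9a3r2, a scaffold protein, kept its call in 5 of the 6 fits without a library, with 44.3, 52.3, and 43.7 in WT and 106, 105, and 72.7 in CsA aortas (log2 0.99, limma adjusted p = 0.0057).

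Of 24 endothelial markers, 23 had a difference above 0 (median 0.74) and 18 had all CsA libraries above all WT libraries, as 9.83% of all genes had, while only Cldn5 and Sema3g were called by limma, against 3 genes by edgeR and 14 by DESeq2. Their summed signal was 1253, 1201, and 1202 in WT and 2138, 2004, and 1635 in CsA aortas. In untreated aortas 20 of the 24 were higher and 1 lower (median 1.19), where 13.9% of all genes were higher. In bulk samples more cells of a type and more RNA per cell cannot be told apart, and the same holds for less of either. The 10 adipocyte markers summed to 1081, 1825, and 1770 in WT and 5847, 2873, and 2116 in CsA aortas, with a median difference of 1.07 and 0 called by limma (6 at an unadjusted p under 0.05) or edgeR, and 4 by DESeq2. Over all genes tested edgeR called 162 and DESeq2 802, and 2546 had an unadjusted limma p under 0.05. The 14 smooth muscle markers summed to 44800, 35890, and 44760 in WT and 25700, 32870, and 27470 in CsA aortas. All CsA sums were below all WT sums for smooth muscle and above them for endothelium and adipocytes.

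Single libraries stood out in further marker lists. The 6 nerve markers summed to 573.5 in CsA replicate 3, which held 188 of Th and 267 of Dbh, both enzymes of noradrenaline synthesis, and to 32.9 to 124.5 in the other 5. The 6 blood markers summed to 1607 in CsA replicate 3 and to 134 to 431 in the others. The 11 macrophage markers summed to 393 in WT replicate 2, which held 259 of Lyz2, and to 124 to 239 in the others. Striated muscle markers, 9 of 10 listed, summed to 489 in WT replicate 2 and to 56.3 to 113.0 in the others. The 10 fibroblast markers summed to 6768 to 7272 in WT and 4944 to 6853 in CsA aortas, and of 10 lymphocyte markers 3 were listed, at sums of 1.29 to 15.6. In none of these 6 lists was a gene called at 2 h by limma or edgeR, and DESeq2 called 1 macrophage marker. At an unadjusted p under 0.05 limma had 6 macrophage, 2 striated muscle, and 1 fibroblast marker, beside 2546 of the 13741 genes tested. The part of cell composition in the differences above was not tested.

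**Figure D3:**
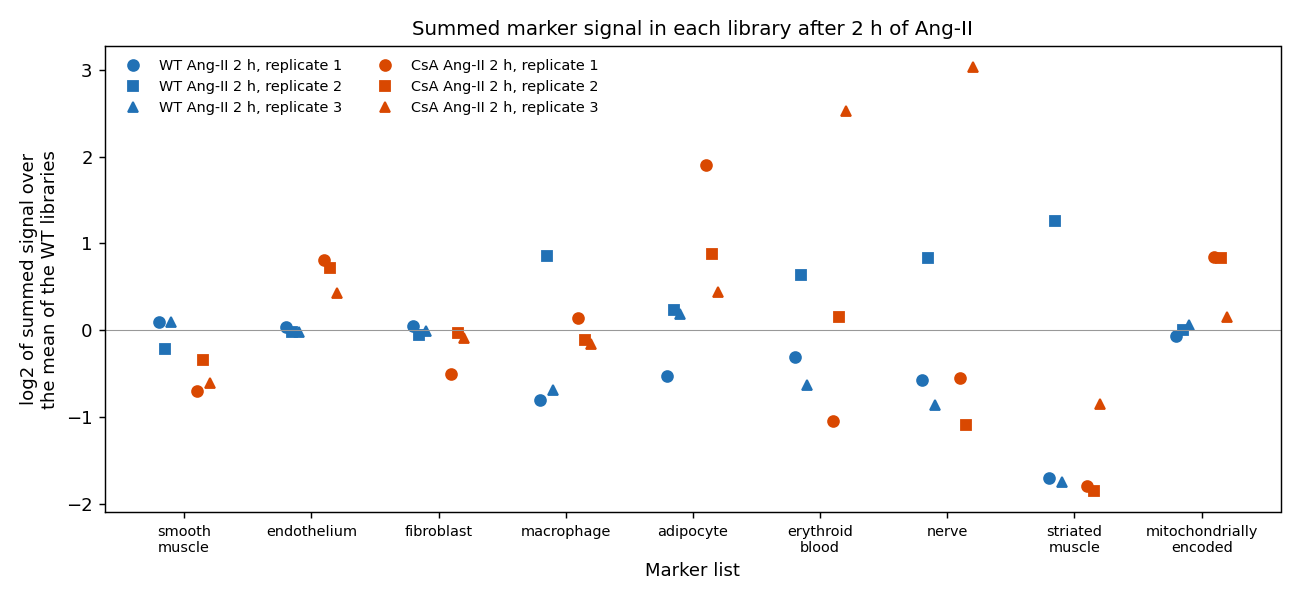
Log2 of the summed marker signal in each library after 2 h of Ang-II over the mean of the 3 WT libraries (vertical axis) for lists of cell type markers and the mitochondrially encoded genes (horizontal axis). Colours are groups and symbols replicates. CsA libraries lie above WT for endothelium and adipocytes and below for smooth muscle, and CsA replicate 3 is apart for nerve and blood.

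**Figure D4:**
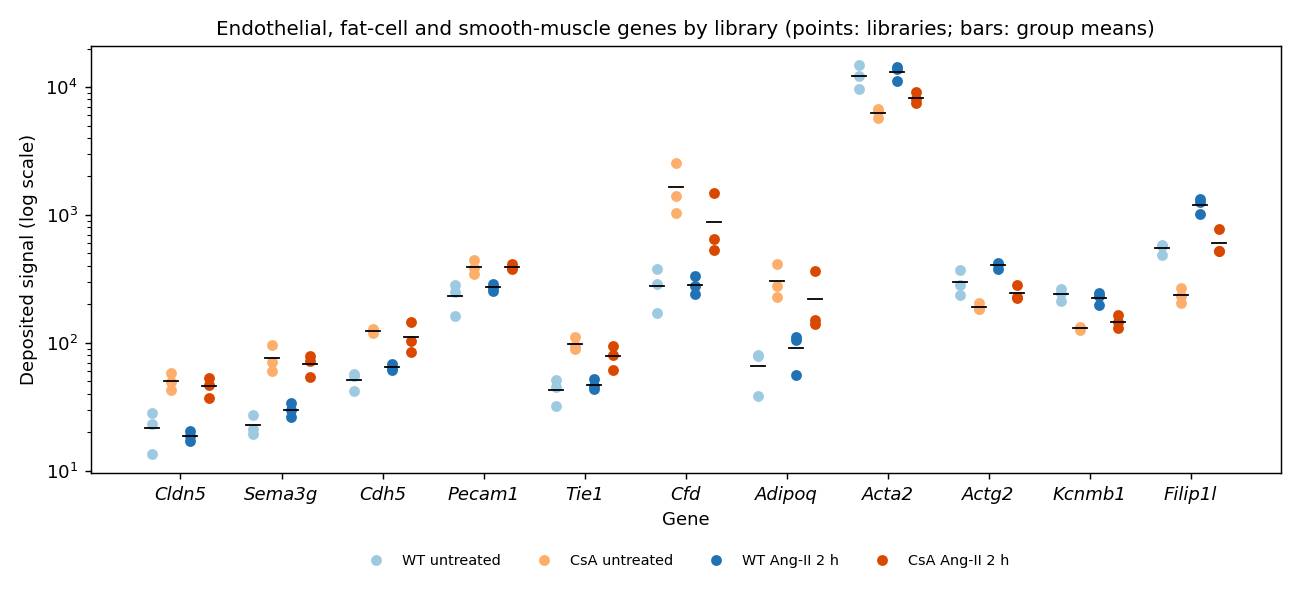
Deposited signal on a log scale (vertical axis) of endothelial, fat-cell, and smooth muscle genes (horizontal axis) in WT and CsA aortas, untreated and after 2 h of Ang-II. Points are the 3 libraries of a group and bars their mean. Cldn5 and Sema3g are above WT in all CsA libraries and Kcnmb1 and Filip1l below, at both times.

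Ret, a receptor tyrosine kinase of neural and other cells, had the largest difference among the higher genes, at 5.62, 4.41, and 3.01 in WT and 13.2, 9.29, and 32.1 in CsA aortas (log2 1.79, SE 0.36, limma adjusted p = 0.031). Its highest value fell in CsA replicate 3, the library with high nerve markers, and without that library and WT replicate 2 the log2 difference was 1.32. Slc7a10, an amino acid transporter expressed in fat, gave 2.23, 2.71, and 4.09 and 17.2, 11.1, and 6.76 (log2 1.74, limma adjusted p = 0.038). Its CsA libraries ranked in the same order as the adipocyte sums, and its WT libraries did not. Tbx3, a T-box repressor, gave 3.26, 4.96, and 3.42 and 12.4, 7.95, and 10.7 (log2 1.31, limma adjusted p = 0.018). Asns, asparagine synthetase of the amino acid response, gave 5.41, 8.47, and 9.02 and 22.4, 12.1, and 19.4 (log2 1.17, limma adjusted p = 0.044) and was the only one of 13 unfolded protein response genes called (median 0.06). Mvd, an enzyme of the mevalonate pathway, was the only one of 16 cholesterol synthesis genes called, at 2.39, 2.11, and 2.49 and 3.75, 4.39, and 6.52 (log2 0.90, limma adjusted p = 0.041).

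Of the 54 higher genes, 38 (70.4%, and 2.0% of the 1904 higher untreated) were also higher in untreated CsA aortas, where 13.9% of all genes were higher, and 0 were lower there. Those 38 had median differences of 0.91 at 2 h and 1.16 untreated, and the other 16 had 0.66 and 0.12. At 24 h 5 of the 54 (9.3%, and 1.8% of the 278 higher there) were higher, where 2.02% of all genes were, and 0 lower.

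**Figure D5:**
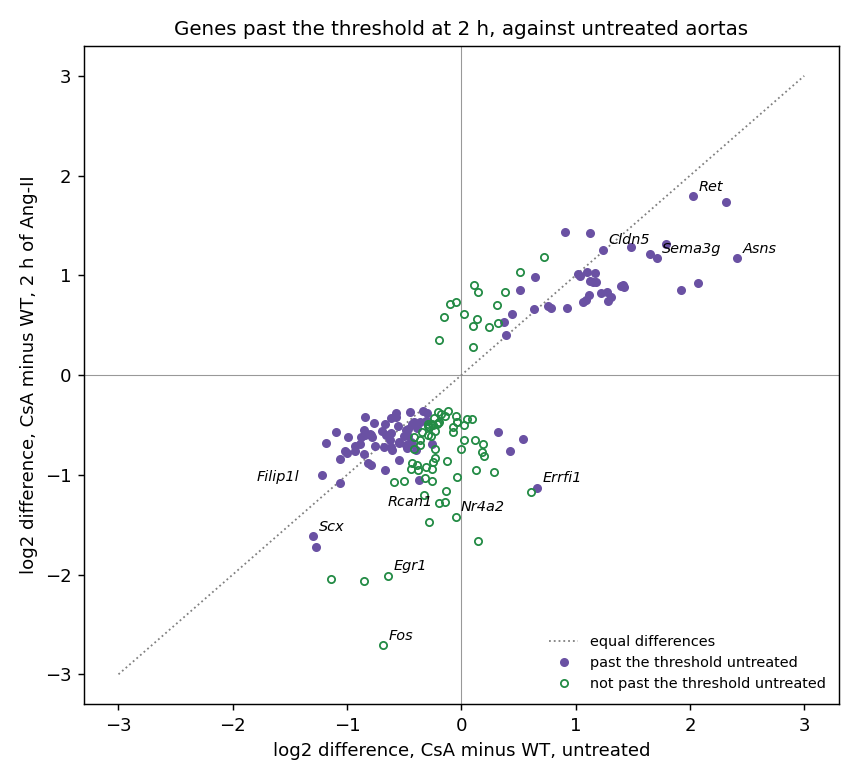
Log2 difference between CsA and WT after 2 h of Ang-II (vertical axis) against that in untreated aortas (horizontal axis) for the 183 genes past the threshold at 2 h. Filled points were also past the threshold untreated. Fos, Nr4a2, and Rcan1 lie well below the dotted line of equal differences, and Cldn5 lies close to it.

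Heat shock genes and several other lists gave 0 calls at 2 h by limma. Their calls in untreated aortas stand beside 13.9% of all genes higher and 11.4% lower there. At 2 h 2546 of the 13741 genes tested had an unadjusted limma p under 0.05, and edgeR called 162 and DESeq2 802. Of 13 heat shock genes 0 passed in limma (7 at an unadjusted p under 0.05) or edgeR and 3 in DESeq2, with a median of -0.52. For 3 of the 13 all CsA libraries lay below all WT libraries, as they did for 10.4% of all genes. Hspb1, a small heat shock protein of smooth muscle, gave 5893, 3898, and 5464 in WT and 2596, 3788, and 2943 in CsA aortas (log2 -0.71, limma adjusted p = 0.13), and Hspa1a gave 6266, 4509, and 6435 and 2213, 4632, and 2931, with CsA replicate 2 inside the WT range (log2 -0.87, limma adjusted p = 0.33). Of 31 interferon-inducible genes 0 passed at 2 h in limma, edgeR, or DESeq2 and 0 had an unadjusted limma p under 0.05 (median 0.32), and 30 were higher in untreated CsA aortas (median 2.30). Of 13 antigen presentation genes 0 were called at 2 h by the 3 tools and 1 had an unadjusted limma p under 0.05 (median 0.31), and 12 were higher untreated (median 1.34). The test of the difference between 2 h and untreated aortas was passed by 1 of the 31 and 1 of the 13. Of 12 glucocorticoid-responsive genes 0 passed at 2 h in limma (3 at an unadjusted p under 0.05) and 1 in DESeq2 (median -0.05), and 8 were higher untreated (median 0.98). Of 16 clock genes 0 passed in limma (6 at an unadjusted p under 0.05) and 2 in DESeq2 (median 0.09), and 1 was higher and 10 lower untreated. Of 17 cell cycle genes 0 passed in any tool (1 at an unadjusted limma p under 0.05, median -0.02). Sgk1, a kinase induced by glucocorticoids, came nearest, at 317, 307, and 381 in WT and 198, 203, and 202 in CsA aortas (log2 -0.73, limma adjusted p = 0.072).

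The difference at 2 h minus the difference in untreated aortas was tested as an interaction, which 20 genes passed (0.146% of those tested). Nr4a2 had an interaction of -1.37 (SE 0.22, limma adjusted p = 0.04) and Errfi1 of -1.79 (SE 0.27, limma adjusted p = 0.04). Emd, for which the difference was -1.05 at 2 h and -0.37 untreated, had an interaction of -0.68 (limma adjusted p = 0.042). In these 3 genes the difference was lower after Ang-II than untreated. The count of 20 fell to 1 under quantile normalization or with replicate number as a block and to 0 without WT replicate 1 or 3 or CsA replicate 3 at 2 h or untreated WT replicate 2. For Rcan1 the interaction was -1.02 (SE 0.30, limma adjusted p = 0.16) and for Fos -2.02 (SE 0.74, limma adjusted p = 0.26), so that a larger difference at 2 h than untreated was not shown for either. Klf4, a zinc-finger factor of smooth muscle plasticity, passed through its untreated level, at 45.4, 36.4, and 45.4 in WT and 75.1, 62, and 65.7 in CsA aortas, against 121, 135, and 143 and 114, 122, and 91.8 at 2 h (interaction -0.96, limma adjusted p = 0.04).

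The libraries labelled SM-Cn-/- and Cn-Ctl, sequenced to 5.80 M to 7.45 M reads after 2 h of Ang-II, share none with this comparison. Ppp3r1, the targeted gene, gave 84.8, 86.5, and 134 in Cn-Ctl and 118, 93.5, and 70.05 in the libraries labelled SM-Cn-/- (log2 -0.12, limma adjusted p = 0.93), so its gene-level signal does not distinguish these labels. The study checked recombination by PCR on aortic tissue and reported less CnB and CnA protein in SM-Cn-/- aortas by immunoblot. Of the 14424 genes tested there, 2.97% were lower and 0.728% higher in the libraries labelled SM-Cn-/-. Of the 129 genes lower with CsA at 2 h, 47 (36.4%, and 10.96% of the 429 lower there) were also lower in those libraries and 0 were higher. Of the 54 higher genes, 3 (5.6%, and 2.86% of the 105 higher there) were higher and 0 lower. Of the 30 immediate early genes 26 were lower (median -1.70), against 10 (median -0.94) with CsA, and of the 13 heat shock genes 13 were lower (median -2.07), against 0 (median -0.52).

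Gene by gene, Rcan1 gave 368, 404, and 380.2 in Cn-Ctl and 46.6, 31.7, and 55.4 in the libraries labelled SM-Cn-/- (log2 -3.13, SE 0.33, limma adjusted p = 3.3e-06), beside -1.16 with CsA. Fos gave 99.2, 428, and 312 and 19.2, 15.9, and 13.8 (log2 -3.83, limma adjusted p = 9.2e-06), beside -2.71. Emd gave 185, 143, and 126 and 65.1, 70.6, and 63.9 (log2 -1.16, limma adjusted p = 0.00048), beside -1.05. Both experiments placed these genes lower in the group labelled as lacking calcineurin in smooth muscle or given its inhibitor. Srf missed the threshold in the genotype experiment (log2 -0.04, limma adjusted p = 0.95), and Cldn5 differed by 0.19 (limma adjusted p = 0.89). Whether the differences in the experiments are of unequal size was not tested, since each table was scaled on its own.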

How the data were processed

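RNA-seq signal was analysed from 18 libraries of WT and CsA-treated mouse aortas and 22 libraries of the genotype experiment. Per the submitters' processing notes and the methods, reads were aligned with Bowtie 0.12.7 and counted with RSEM 1.16 on GRCm38. The deposited values are a signal that the authors had normalized: reads per gene plus 0.5 over a scaled library size. In every library 100% of values convert to whole reads within 0.02 reads, and the recovered reads served edgeR 4.0.16 and DESeq2 1.42.0 as alternatives. The authors' scaling is part of each value and can move the balance of higher and lower genes.

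Of 15399 listed genes, 13741 protein-coding genes were kept. Log2 of signal plus 0.5 was fitted with limma 3.58.1 in R 4.3.3, with 1 mean for each of the 6 groups, equal library weights, an intensity trend, and Benjamini-Hochberg adjustment. The genotype table was fitted separately (14424 genes). The fit was tested on simulated data. The labels state no separate origin for replicates beyond the pools of 3 aortas, so p-values measure the spread between pools of a group, taken over all groups of the fit. An exact permutation test of 3 against 3 libraries cannot go below p = 0.1 and was not used. Gene lists, markers and the rule for named genes (list members, up to 20 genes with the largest differences in each direction among called genes without overlap and with a mean signal of at least 1, and genes past the interaction test) were chosen with earlier results of these data known.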

Additional observations from a re-analysis of the deposited data

Results flagged for a closer look

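For 20 genes the CsA effect after 2 h of Ang-II differed from that in untreated aortas by a test of the difference itself (limma interaction, adjusted p under 0.05, 3 libraries in each of 4 groups). In all, 17 interactions were negative and 3 positive on the log2 scale.

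Early-response and signalling genes were among the negative ones: Errfi1 (-1.79), Nr4a2 (-1.37), Klf4 (-0.96), the cell cycle inhibitor Cdkn1a (-1.47), the kinase Pim3 (-0.89), the actin regulator Baiap2 (-1.43), and the Wnt antagonist receptor Kremen1 (-0.88). Cdkn1a gave 27.1, 29.8, and 32.7 in untreated WT, 78.1, 48.5, and 79.1 in untreated CsA, 141, 123, and 162 in WT at 2 h, and 135, 120.2, and 89.8 in CsA at 2 h.

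Interferon-inducible and antigen presentation genes with negative values were Gbp6 (-3.30), Zbp1 (-3.08), and Ciita (-2.64). Gbp6 gave 67.2, 121, and 119 in untreated CsA aortas and 11.6, 8.11, and 5.62 in untreated WT aortas, and at 2 h 10.9, 7.1, and 10.7 and 6.29, 11.5, and 6.81. The clock gene Arntl (-3.26) gave 0.966, 0.768, and 0.71 in untreated WT and 6.31, 3.08, and 6.64 in untreated CsA aortas, with the opposite order at 2 h (5.88, 5.46, and 6.4 and 1.97, 1.98, and 3.23). The hour of harvest was not analysed here.

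The remaining negative values were -0.68 for Emd, -0.54 for Eprs, a tRNA synthetase, -0.89 for Lnx2, -1.19 for Por, the P450 reductase, -1.19 for Rhbdd2, and -1.01 for Slc43a3. Positive values were found for Ifngr2, a subunit of the interferon-gamma receptor (0.78), Lonrf1 (0.86), and Syt15 (1.06). These values share the libraries at 2 h with the comparison of CsA and WT, and the count of 20 fell to 0 without WT replicate 1 or 3 or CsA replicate 3 at 2 h or untreated WT replicate 2.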

How the results depend on the processing

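The direction of all 183 genes was kept in every fit that tested them (180 with a mean signal of at least 5). For the 182 whose groups did not overlap, leaving out libraries could not have changed it. The number past the threshold was not stable. It was 68 (13 higher, 55 lower) under quantile normalization, 2 (0 higher, 2 lower) with only the groups compared, 674 (269, 405) with array weights, 57 (15, 42) without the intensity trend, 802 (299, 503) under DESeq2, and 319 (154, 165) without both WT replicate 2 and CsA replicate 3, an alternative added after seeing the data. It ranged from 13 to 404 (0 to 112 higher, 13 to 293 lower) with 1 library left out, and, apart from the replicate block below, lay between 162 and 217 under the other alternatives. With only the groups compared, fewer libraries estimate the spread, and those groups alone supply it. Such fits gave 4197 calls in untreated aortas, against 3464, and 0 at 24 h, against 765. The cause of these changes in count was not tested. The 20 interaction calls were 1 under quantile normalization, 70 with only the 4 groups, 223 with array weights, 13 under edgeR, 323 under DESeq2, 1 without both libraries, and 0 to 47 with 1 library left out. Calls in untreated aortas (3464) ranged from 2039 to 2872 with 1 library left out. Calls at 24 h (765) were 0 with only the groups compared, 1297 with array weights, 1536 under DESeq2, and 76 to 1094 with 1 library left out. Calls in the genotype experiment (534) were 344 under quantile normalization and 261 to 595 with 1 library left out. Of 1004 values for the 53 named genes past the threshold, 676 stayed past it and 328 did not, and 26 values of uncalled named genes passed it.

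Deviations of same-numbered WT and CsA libraries from their group means were negatively correlated at 2 h (-0.157, -0.327, and -0.389). Deviations of 3 libraries from their own mean depend on each other, so these values cannot decide whether the numbers pair libraries. The labels do not state it either, and the main fit took no pairs. With replicate number as a block, 58 genes were past the threshold (13 higher, 45 lower) and 1 passed the interaction test.

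At 18.98 M to 25.89 M reads, the spread between libraries of a group exceeded the sampling of reads in every pair (chi-square per degree of freedom 10.49 or more).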

Other observations

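Transcripts of the 13 mitochondrially encoded genes took 7.61%, 8.82%, and 8.31% of the signal in the WT libraries at 2 h and 15.42%, 14.23%, and 10.26% in the CsA libraries. None passed the threshold at 2 h in limma (5 at an unadjusted p under 0.05), 1 did in edgeR and 8 in DESeq2, with a median log2 difference of 0.56 (0.82 without WT replicate 2 and CsA replicate 3), and 9 were higher in untreated CsA aortas, where 13.9% of all genes were. Over all genes tested at 2 h, 2546 had an unadjusted limma p under 0.05, and edgeR called 162 and DESeq2 802. The mitochondrial shares order the CsA libraries, but not the WT libraries, as the shares of the 10 most abundant genes do. A gene can count in both shares, so they are not separate measures.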
